A study of Mus musculus with 10 samples.

Results

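The transcripts of 10 genes of the tight junction were followed in epithelial cells of the mouse jejunum, out of 35275 genes listed. The set is a list of names with no cut on measured values: the claudins Cldn1, Cldn2, Cldn3, Cldn4, Cldn7, Cldn8, Cldn15 and Cldn23, the scaffold gene Tjp1 and the gene of occludin, Ocln. All mice carried VillinCreERT2, a tamoxifen-activated Cre driven in gut epithelial cells, together with MYO5Bflox/flox alleles of myosin Vb on the C57BL/6 strain, and all were labelled adult males. Control mice (n = 3, numbered 2, 4 and 5) received corn oil and were not induced. MYO5B-knockout mice (n = 4, numbered 3, 5, 6 and 7) received a single dose of 2 mg tamoxifen followed by vehicle, and LPA-treated MYO5B-knockout mice (n = 3, numbered 1, 4 and 5) received the same tamoxifen dose followed by lysophosphatidic acid (LPA) at 3 mg/kg, injected intraperitoneally. Treatment lasted 4 days. Tamoxifen and loss of MYO5B thus cannot be told apart in any comparison with control mice.

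Tight junctions close the space between neighbouring epithelial cells near their apical side. Claudins are the membrane proteins that form their strands, and the mix of claudins sets which ions pass between the cells: claudin-2 and claudin-15 form cation-selective pores, whereas claudin-3, claudin-4 and most others are counted among the sealing claudins. Occludin sits in the same strands, and ZO-1, the product of Tjp1, ties them to the actin cytoskeleton. In the small intestine claudin-2 is known from crypt cells and from the immature gut, and claudin-15 supplies the paracellular sodium that is used for glucose uptake. Myosin Vb is the motor that carries recycling endosomes to the apical membrane, and its loss in people causes microvillus inclusion disease.

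Values are FPKM, the fragments per kilobase of transcript, scaled to the fragments counted in the library, so levels can be compared between genes. Libraries still differed in scale, with size factors by the median of ratios of 0.623 to 1.31, so results that turn on the scaling are named. Each library held 10949420 to 24470409 reads on genes. Control mice 2, 4 and 5 held Myo5b at 16.5, 32.0 and 26.1 FPKM, and all 7 induced libraries lay between 10.3 and 13.6 FPKM, below every control library. The log2 fold change of Myo5b between MYO5B-knockout and control mice was -0.96 (SE 0.28, limma's adjusted p = 0.115), and -1.15 when both libraries named next were left out (limma's adjusted p = 0.0185). Control mouse 2 and MYO5B-knockout mouse 3 stood apart, with 12242 and 12601 genes detected against 17309 to 18267 in the other 8 libraries, and with 17.4% and 18.0% of reads on mitochondrial genes against 1.98% to 3.50%. Results are therefore given with and without both. Although labelled male, 2 libraries (MYO5B-knockout mouse 3, LPA-treated mouse 1) had Xist and lacked reads on 4 Y-linked genes. The description of LPA-treated mouse 1 names vehicle in 1 line and LPA in the other, while its title names LPA. The 7 epithelial markers were found in every library and summed to 4703 to 5839 FPKM in control mice, 6362 to 8419 FPKM in MYO5B-knockout mice and 7987 to 9851 FPKM in LPA-treated mice. Of these, 2 passed as higher between LPA-treated and control mice (Krt18 and Krt19, named after their values were seen), and Vil1, a marker of the brush border, ranged from 69.3 to 895 FPKM. The 6 endothelial markers summed to 0.715 to 2.44 FPKM in control mice, 1.24 to 9.49 FPKM in MYO5B-knockout mice, with the highest sum in mouse 3, and 1.57 to 4.12 FPKM in LPA-treated mice, and up to 4 of them were at 0 in a library. Leukocyte markers moved with the groups: 8 of them, among them Cd74, which gut epithelial cells can also express, summed to 1084 to 2089 FPKM in control mice, 38.0 to 833 FPKM in MYO5B-knockout mice and 120 to 205 FPKM in LPA-treated mice, with at most 2 at 0 in a library. The defining leukocyte marker Ptprc lay at 0.367 to 3.39 FPKM in control mice and 0.158 to 1.57 FPKM in MYO5B-knockout mice. In LPA-treated mice Ptprc lay at 0.434 to 1.19 FPKM, and these ranges overlapped. Between MYO5B-knockout and control mice 7 of the 8 were lower and 1 passed, and the part of these markers in the results below was not tested.

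In short, Cldn2 was the only one of these genes to pass the test between MYO5B-knockout and control mice, where it rose 8.26-fold. Cldn15, the other pore-forming claudin, was lower in every induced library, and Cldn4 was higher in every LPA-treated library than in any other library. Cldn7, the most abundant claudin, and Cldn3 overlapped between all groups. Of the 10 genes, 8 averaged 0.1 FPKM or more and were tested, which Cldn1 and Cldn8 did not reach.

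In control mice the levels in FPKM ran from Cldn7 (1085 ± 221, SD, n = 3) through Cldn15 (356 ± 89.3) and Cldn3 (294 ± 127) to Cldn4 (93.8 ± 58.1). Below them lay Ocln (17.1 ± 8.37), Cldn23 (13.3 ± 7.29), Cldn2 (9.84 ± 2.53) and Tjp1 (4.97 ± 2.85). The control ranges of Cldn15 and Cldn3 overlapped, as did those of Ocln, Cldn23 and Cldn2, so the ranges alone do not order these neighbours. Within each control library Cldn15 exceeded Cldn3, and Ocln exceeded Cldn23. Cldn2 exceeded Ocln and Cldn23 in control mouse 2 and lay below both in the other control mice. Cldn7 and Cldn4 each had a range apart from their neighbours, and that of Tjp1 lay below Cldn2 but overlapped that of Cldn23. In MYO5B-knockout mice Cldn2 ranked 5 instead of 7, at 85.9 ± 33.6 FPKM (SD, n = 4), with no overlap with Cldn23 below it.

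**Figure D1:**
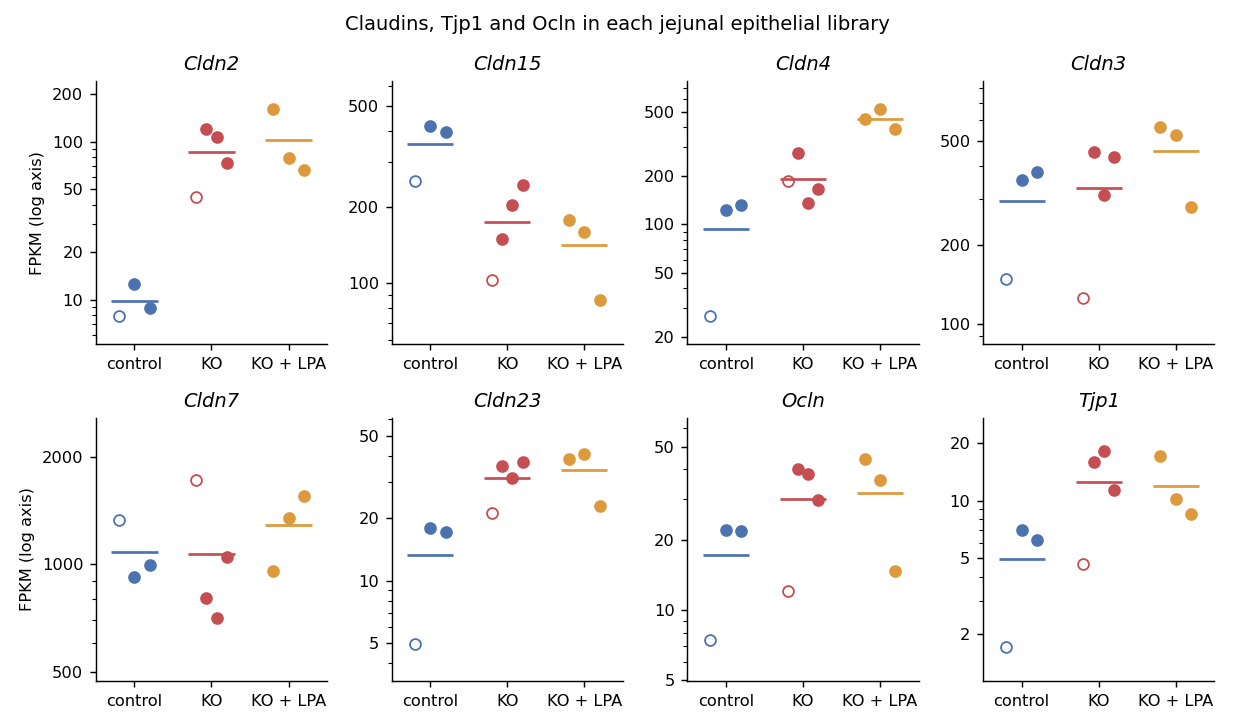
FPKM (log axis, a separate scale in each panel) of the 8 tested genes in control, MYO5B-knockout (KO) and LPA-treated MYO5B-knockout (KO + LPA) mice; each point is 1 library, the line is the group mean, and open points are control mouse 2 and MYO5B-knockout mouse 3. Cldn2 lies at 7.88 to 12.7 FPKM in control mice and above 44 FPKM in all induced mice, Cldn15 is lower in the induced mice, and Cldn4 is highest in the 3 LPA-treated mice.

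The promoters of Cldn2 and Cldn15 are shown because the induced libraries lay on opposite sides of the control libraries for these genes. Each run below is the 250 bases before the RefSeq transcript start (build GRCm38.p6, plus strand in both), with motif matches in capitals. The window of Cldn2 is chrX:139800558-139800807 and ends just before the gene as listed (chrX:139800828-139811386). Bases just after this RefSeq start were not found near the start of any Cldn2 transcript in the GENCODE annotation. Distances below are counted from the RefSeq start. The window of Cldn15 is chr5:136967619-136967868, and lies inside the gene as listed (chr5:136966616-136975858), which begins further upstream.
Cldn2: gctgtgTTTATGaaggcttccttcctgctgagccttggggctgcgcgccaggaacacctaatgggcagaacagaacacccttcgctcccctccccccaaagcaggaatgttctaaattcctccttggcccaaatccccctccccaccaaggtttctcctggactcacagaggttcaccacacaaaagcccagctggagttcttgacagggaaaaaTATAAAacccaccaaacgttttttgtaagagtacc
Cldn15: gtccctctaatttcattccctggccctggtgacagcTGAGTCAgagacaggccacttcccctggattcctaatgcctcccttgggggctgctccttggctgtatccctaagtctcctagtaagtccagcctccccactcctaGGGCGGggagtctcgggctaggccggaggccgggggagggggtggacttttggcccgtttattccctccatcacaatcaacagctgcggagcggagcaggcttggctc
The letters searched on both strands were those of the TATA box (TATAAA, held by 12.4% of all 32851 RefSeq promoter windows of this length), a CDX core (TTTATG, 10.8%), an HNF1 core (GTTAAT, 6.43%), a GATA site (AGATAA, 9.99%), an AP-1 site (TGANTCA, 6.75%), the GC box (GGGCGG, 32.7%) and a STAT site (TTCNNNGAA, 7.02%). The Cldn2 window held TATAAA, starting 35 bases before the transcript start, and TTTATG, 244 bases before it. The Cldn15 window held neither of these and held TGAGTCA, 214 bases before the start, and GGGCGG, 108 bases before it. No match overlapped another in these windows, and a match in letters is a description of the sequence and not of binding.

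Cldn2 (ENSMUSG00000047230), the pore-forming claudin of crypts, measured 7.88, 12.7 and 8.93 FPKM in control mice 2, 4 and 5. MYO5B-knockout mice 3, 5, 6 and 7 gave 44.7, 119, 106 and 73.3 FPKM, and LPA-treated mice 1, 4 and 5 gave 161, 78.6 and 66.3 FPKM. Every induced library lay above every control library, and the lowest induced value, in MYO5B-knockout mouse 3, still exceeded the highest control value. These levels rest on 265 to 595 reads in control mice and 1489 to 11966 reads in induced mice. On the log2 scale of FPKM + 0.1, Cldn2 rose by 3.05 between MYO5B-knockout and control mice (SE 0.42, limma's adjusted p = 0.0081), an 8.26-fold difference with a 95% confidence interval of 4.36 to 15.6. It was 1 of 8 tested genes of the set to pass an adjusted p of 0.05, where 2.01% of all 15729 genes tested passed. Leaving out the libraries that stood apart gave 3.18 (limma's adjusted p = 0.0124), edgeR on recovered reads gave 2.81 (adjusted p = 0.00409), and leaving out control mouse 5 gave 2.99 (limma's adjusted p = 0.0506), which just missed the threshold. Between LPA-treated and control mice, which use the same controls, Cldn2 rose by 3.28 (SE 0.44, limma's adjusted p = 0.00595). Without LPA-treated mouse 1, the library with the unclear description, this was 2.89 (limma's adjusted p = 0.0271).

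Cldn2 values overlapped between LPA-treated and untreated MYO5B-knockout mice, with a log2 difference of 0.23 and a 95% interval of -0.69 to 1.15 (limma's adjusted p = 1.00). LPA-treated mouse 1 held the highest value of all, and the other LPA-treated libraries lay within the range of MYO5B-knockout mice. Markers of proliferation were also higher: the summed level of 10 proliferation markers was 69.5 to 129 FPKM in control mice, 205 to 356 FPKM in MYO5B-knockout mice and 151 to 269 FPKM in LPA-treated mice. Each of the 10 lay higher in MYO5B-knockout than in control mice (median 1.28 on the log2 scale). None of the 10 passed the test, and none was at 0 in any library. Their part in the level of Cldn2 was not tested. In bulk tissue a change in the number of crypt cells and a change in RNA per cell cannot be told apart.

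Cldn15 (ENSMUSG00000001739), which supplies sodium to the lumen, measured 253, 418 and 395 FPKM in the control libraries. The MYO5B-knockout libraries gave 103, 150, 203 and 244 FPKM, and the LPA-treated ones 178, 159 and 86.4 FPKM. All induced values lay below all control values, but control mouse 2 and MYO5B-knockout mouse 7 were close together. The log2 fold change between MYO5B-knockout and control mice was -1.06 (SE 0.38, 95% interval -1.90 to -0.22), which did not pass the test (limma's adjusted p = 0.180). It stayed at -1.06 without the libraries that stood apart (limma's adjusted p = 0.113), and it passed after scaling by the median of ratios (-1.35, limma's adjusted p = 0.045) and with DESeq2 (-1.31, adjusted p = 0.00121) but not with edgeR (-1.28, adjusted p = 0.0685). Between LPA-treated and control mice it was -1.37 (SE 0.41, limma's adjusted p = 0.123), which became -1.59 with the libraries that stood apart left out (limma's adjusted p = 0.0343). For LPA-treated against untreated MYO5B-knockout mice the difference was -0.30, with an interval of -1.14 to 0.54. Markers of enterocytes, which carry out absorption on the villus, summed to 33221 to 43407 FPKM in control mice, 16510 to 32062 FPKM in MYO5B-knockout mice and 27301 to 49581 FPKM in LPA-treated mice. Of 10 enterocyte markers, 6 were lower in MYO5B-knockout mice and none passed, and between LPA-treated and control mice 5 were lower and 1 of these passed. With the libraries that stood apart left out, 1 and 2 of the 10 passed. Their part in the level of Cldn15 was not tested.

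Every induced library held more Cldn2 and less Cldn15 than any control library. The ratio of these pore-forming claudins therefore had to separate control from induced mice by more than either gene. The induced groups overlapped in this ratio. Cldn15 exceeded Cldn2 32.1-fold, 32.9-fold and 44.3-fold in control mice 2, 4 and 5. In MYO5B-knockout mice 3, 5, 6 and 7 the ratio was 2.30, 1.26, 1.91 and 3.33, and in LPA-treated mice 1, 4 and 5 it was 1.11, 2.02 and 1.30. The ratio is taken within a library, so scaling between libraries does not touch it, and control mouse 2 lay with the other controls. No induced library reached 4-fold, and no control library fell below 32-fold. No test was made, since this ratio was formed with the values known.

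**Figure D2:**
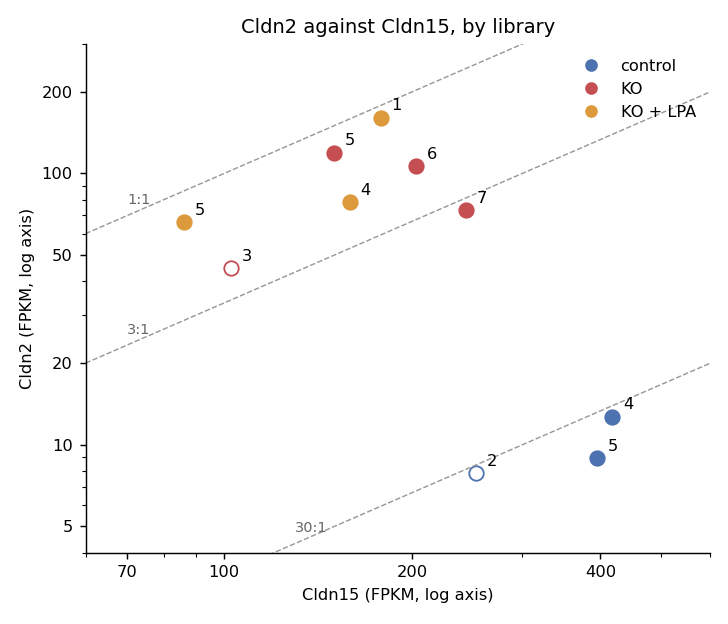
Cldn2 against Cldn15 in FPKM (both axes log), 1 point per library with its mouse number, open for control mouse 2 and MYO5B-knockout mouse 3; dashed lines mark equal ratios of Cldn15 to Cldn2. The 3 control libraries lie at ratios of 32.1 to 44.3, and the 7 induced libraries at 1.11 to 3.33.

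Cldn4 is a sealing claudin and a neighbour of Cldn3 on chromosome 5, with 39279 bases between the genes (chr5:134945126-134946934 and chr5:134986214-134987472). The promoters of this pair are shown because the ratio of their levels did not overlap between control and induced mice, with matches to the same motifs in capitals. The window of Cldn4 is chr5:134946935-134947184 on the minus strand and that of Cldn3 is chr5:134985964-134986213 on the plus strand.
Cldn4: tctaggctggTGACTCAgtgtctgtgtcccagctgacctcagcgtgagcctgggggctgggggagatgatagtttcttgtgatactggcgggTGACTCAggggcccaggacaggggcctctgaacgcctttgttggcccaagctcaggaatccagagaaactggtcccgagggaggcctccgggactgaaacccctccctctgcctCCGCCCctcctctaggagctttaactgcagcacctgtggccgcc
Cldn3: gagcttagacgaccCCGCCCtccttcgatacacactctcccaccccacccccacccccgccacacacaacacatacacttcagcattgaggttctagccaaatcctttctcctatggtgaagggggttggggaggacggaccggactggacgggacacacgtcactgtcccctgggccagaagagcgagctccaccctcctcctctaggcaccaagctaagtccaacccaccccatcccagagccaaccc
The Cldn4 window held TGACTCA at 2 places, 240 and 158 bases before the start, and CCGCCC, the reverse complement of the GC box, 44 bases before it. The Cldn3 window held CCGCCC, 236 bases before its start, and no match to TGANTCA. The sequence table held 8 of the 10 genes, and Cldn8 and Cldn23 had no entry.

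Cldn4 (ENSMUSG00000047501) measured 26.9, 123 and 131 FPKM in the control libraries and 187, 277, 136 and 165 FPKM in the MYO5B-knockout libraries. The LPA-treated libraries gave 449, 517 and 392 FPKM. The LPA-treated libraries were the highest, with no overlap with either other group, while MYO5B-knockout mouse 6 lay just above control mouse 5. Sums of secretory cell markers were also taken, and none of these markers passed between LPA-treated and untreated MYO5B-knockout mice. The 6 goblet cell markers summed to 5125 to 6623 FPKM in control mice, 3748 to 5879 FPKM in MYO5B-knockout mice and 6003 to 9603 FPKM in LPA-treated mice. All 6 lay higher in LPA-treated than in MYO5B-knockout mice (median 0.62 on the log2 scale, none passed), and 1 passed against control mice. The 6 Paneth cell markers summed to 3851 to 10491 FPKM in control mice, 3501 to 6088 FPKM in MYO5B-knockout mice and 1057 to 4024 FPKM in LPA-treated mice, and all 6 lay lower in LPA-treated than in MYO5B-knockout mice (median -1.29, none passed). None of these markers was at 0 in a library, and their part in the level of Cldn4 was not tested. Between MYO5B-knockout and control mice the log2 fold change was 1.28 (SE 0.51, limma's adjusted p = 0.228). It was 0.53 with the libraries that stood apart left out (limma's adjusted p = 0.313). Leaving out control mouse 2 alone, which held the lowest value, gave 0.54. Between LPA-treated and untreated MYO5B-knockout mice it was 1.28 (SE 0.51, 95% interval 0.15 to 2.42), and 1.29 without the libraries that stood apart. This difference had the smallest p of the set in that comparison (unadjusted p = 0.0301, limma's adjusted p = 1.00). Without LPA-treated mouse 1, the library with the unclear description, the difference was 1.29 (SE 0.61, limma's unadjusted p = 0.0648). Between LPA-treated and control mice Cldn4 rose by 2.57 (SE 0.55, limma's adjusted p = 0.0432), a 5.92-fold difference with an interval of 2.56 to 13.7. That call was kept without the libraries that stood apart (1.82, limma's adjusted p = 0.0172) and with edgeR (2.07, adjusted p = 0.0429). It was lost in 8 of 10 fits that each left out 1 mouse, every mouse other than control mouse 2 and MYO5B-knockout mouse 3, with adjusted p-values up to 0.137.

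Cldn3 (ENSMUSG00000070473), the neighbouring sealing claudin, measured 148, 355 and 379 FPKM in the control libraries. It gave 125, 455, 310 and 433 FPKM with MYO5B loss, and 566, 527 and 281 FPKM with LPA added. The lowest values of the first 2 groups were those of the libraries that stood apart, and all groups overlapped. Its log2 fold changes were 0.13 between MYO5B-knockout and control mice (limma's adjusted p = 0.927), with a direction that turned to -0.17 after scaling by the median of ratios, and 0.56 between LPA-treated and untreated MYO5B-knockout mice. The ratio of Cldn4 to Cldn3 was 0.18, 0.35 and 0.35 in control mice, 1.49, 0.61, 0.44 and 0.38 in MYO5B-knockout mice and 0.79, 0.98 and 1.40 in LPA-treated mice. It was higher in every induced library than in any control library. An antisense gene, Wbscr25, overlaps Cldn3 and held 0.117% as many reads, and no source used here says that strand was counted.

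Cldn7 (ENSMUSG00000018569, chr11:69964779-69967885), a claudin needed for the integrity of the gut epithelium, measured 1336, 923 and 995 FPKM in the control libraries. The MYO5B-knockout libraries held 1721, 802, 706 and 1050 FPKM, and the LPA-treated ones 956, 1351 and 1559 FPKM. The groups overlapped throughout. The log2 fold change between MYO5B-knockout and control mice was -0.09, with an interval of -0.91 to 0.73 (limma's adjusted p = 0.927). In contrast to most of the set, Cldn7 was highest within its group in the 2 libraries that stood apart. In both libraries Cldn2, Cldn15, Cldn3, Cldn23, Ocln and Tjp1 each had the lowest value of their group.

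Cldn23 (ENSMUSG00000055976, chr8:35824709-35826559), a less studied claudin of differentiated gut cells, measured 4.94, 17.9 and 17.2 FPKM in the control libraries. It reached 21.1, 35.7, 31.1 and 37.5 FPKM with MYO5B loss, and 38.3, 40.6 and 22.9 FPKM with LPA added. All induced values lay above the control values. The log2 fold change between MYO5B-knockout and control mice was 1.40 (SE 0.46, 95% interval 0.39 to 2.42) and did not pass the test (limma's adjusted p = 0.145). It passed with quantile normalization (1.20, limma's adjusted p = 0.0469) and in DESeq2 (1.04, adjusted p = 0.0303) but not in edgeR (1.06, adjusted p = 0.132) or with the libraries that stood apart left out (0.98, limma's adjusted p = 0.0733). LPA-treated and untreated MYO5B-knockout mice differed by 0.10, with an interval of -0.91 to 1.12.

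Ocln (ENSMUSG00000021638, chr13:100496507-100552718) measured 7.46, 22.1 and 21.8 FPKM in the control libraries, 12.1, 40.1, 38.1 and 29.5 FPKM in those with MYO5B loss, and 44.4, 35.9 and 14.7 FPKM in those with LPA added. Tjp1 (ENSMUSG00000030516, chr7:65296165-65371239) measured 1.71, 6.99 and 6.21 FPKM, then 4.68, 15.9, 18.1 and 11.4 FPKM, and 17.2, 10.2 and 8.52 FPKM in the same order of groups. Both genes overlapped between MYO5B-knockout and control mice through the libraries that stood apart, whereas Tjp1 was higher in every LPA-treated library than in any control library. Between MYO5B-knockout and control mice the log2 fold change of Ocln was 0.82 (SE 0.56, limma's adjusted p = 0.486) and that of Tjp1 was 1.38 (SE 0.59, limma's adjusted p = 0.261). Without the libraries that stood apart these were 0.69 and 1.16, and neither passed. Between LPA-treated and untreated MYO5B-knockout mice the differences were 0.07 for Ocln and 0.04 for Tjp1, with intervals of -1.17 to 1.32 and -1.26 to 1.34, and both turned below 0 after scaling by the median of ratios. Ocln and Tjp1 followed each other over the 10 libraries, with a Pearson correlation of 0.93 on the log2 scale, and 0.81 over the 8 libraries without those that stood apart, as a description of libraries that share groups and depth.

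Cldn1 and Cldn8 were at the limit of detection. Cldn1, a sealing claudin of skin and other barriers, had 0 reads in every control library, which allows levels up to 0.0528 to 0.0837 FPKM (3 reads, counting error only). It had at most 4 reads in an induced library, reached in MYO5B-knockout mouse 5 at 0.0714 FPKM. Cldn8, known from the distal colon and kidney, had between 0 and 3 reads in every library and 0 in all LPA-treated libraries. No fold was computed for these genes.

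**Figure D3:**
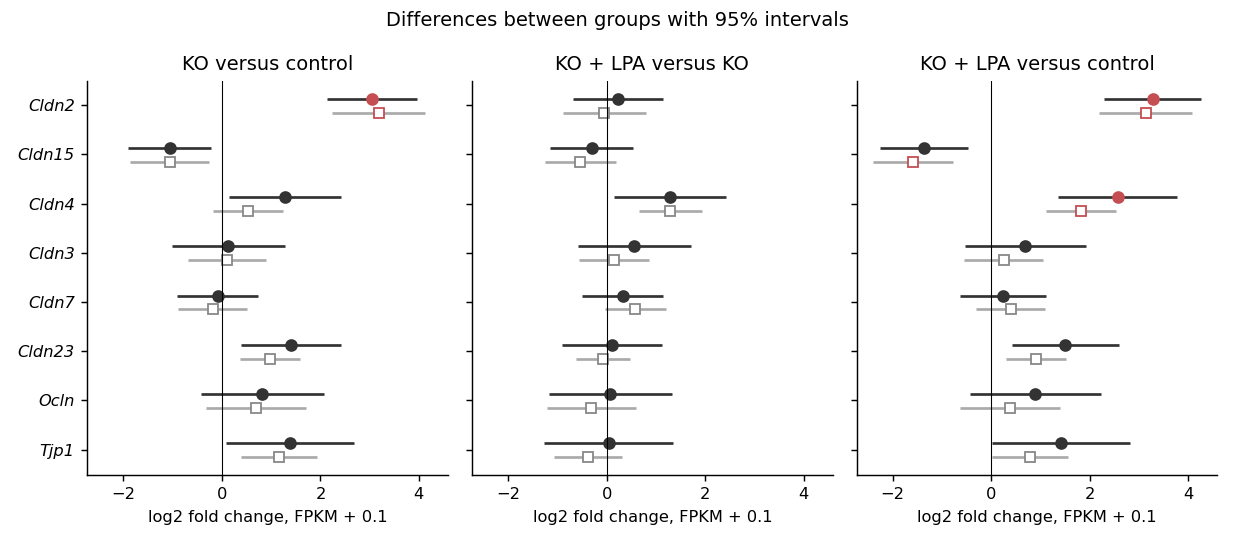
Log2 fold change of FPKM + 0.1 (x axis) for the 8 tested genes in the 3 comparisons, with 95% intervals; filled circles use all libraries, open squares leave out control mouse 2 and MYO5B-knockout mouse 3, and red marks an adjusted p under 0.05. Cldn2 stands at 3.05 and 3.28 against control mice, Cldn15 lies below 0 in each panel, and Cldn4 is the only gene whose interval excludes 0 between LPA-treated and untreated MYO5B-knockout mice.

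Across the set, MYO5B-knockout against control mice, which asks what tamoxifen and MYO5B loss changed together, gave 1 call. Of the 8 tested genes, 4 had groups that did not overlap (Cldn2, Cldn4 and Cldn23 higher, Cldn15 lower). Such a lack of overlap held for 17.2% of all genes tested. For Cldn4 this turns on the scaling. MYO5B-knockout mouse 6 held 136 FPKM with a size factor of 1.22, and control mouse 5 held 131 FPKM with a size factor of 1.00. Without the libraries that stood apart 1 gene of the set passed, against 4.95% of all genes. After scaling by the median of ratios 2 passed (3.8% of all genes), after quantile normalization 2 (5.11%), with edgeR 1 (2.82%) and with DESeq2 3 (12.5%). The median log2 fold change of the 8 genes was 1.05, and that of all genes tested was 0.29. These medians became 0.76 and 0.04 after scaling by the median of ratios, and 0.61 and 0.21 with the libraries that stood apart left out. The fold changes above are to be read against that shift. The 316 genes called in all were 177 higher and 139 lower, and after scaling by the median of ratios 223 higher and 375 lower. In the comparison of LPA-treated with untreated MYO5B-knockout mice, which asks what LPA changed, none of the 8 genes passed, nor did any of the 15729 genes (percent called 0). There, 459 genes had an unadjusted p under 0.05, edgeR called 0 genes and DESeq2 called 7 (0.0589% of those tested), none of them in the set. Only Cldn4 had groups that did not overlap, which held for 4.16% of all genes. Between LPA-treated and control mice 2 of 8 genes passed, Cldn2 and Cldn4, where 2.32% of all genes did, and 5 of 8 had groups that did not overlap, where 26.9% of all genes did. The count in the set was 3 after scaling by the median of ratios (3.12% of all genes) and 2 after quantile normalization (3.98%). It was 3 with edgeR (2.4%), 4 with DESeq2 (10.2%) and 3 without the libraries that stood apart (8.56%).

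The make-up of the claudin transcripts was computed as the share of each gene in the summed FPKM of the 8 claudins. The sum overlapped between control mice (1777 to 1928 FPKM) and MYO5B-knockout mice (1492 to 2201 FPKM), and was higher in every LPA-treated mouse (2348 to 2674 FPKM). That separation turns on the scaling, since the sums were not rescaled between libraries. Size factors were 0.623 in control mouse 2 and 0.723 in MYO5B-knockout mouse 3, against 1.05 to 1.26 in LPA-treated mice. Cldn7 took 40.7% to 78.2% in every library. Cldn2 took 0.444%, 0.686% and 0.463% in control mice, 2.03%, 6.48%, 7.12% and 3.66% in MYO5B-knockout mice and 6.84%, 2.94% and 2.75% in LPA-treated mice. Cldn15 took 14.3% to 22.6% in control mice, 4.67% to 13.6% in MYO5B-knockout mice and 3.59% to 7.59% in LPA-treated mice. The share of Cldn4 was 1.52% to 6.81% in control mice, 8.26% to 15.1% in MYO5B-knockout mice and 16.3% to 19.4% in LPA-treated mice. For Cldn2, Cldn15 and Cldn4 the control range did not overlap that of either induced group, and for Cldn4 the induced groups did not overlap each other.

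**Figure D4:**
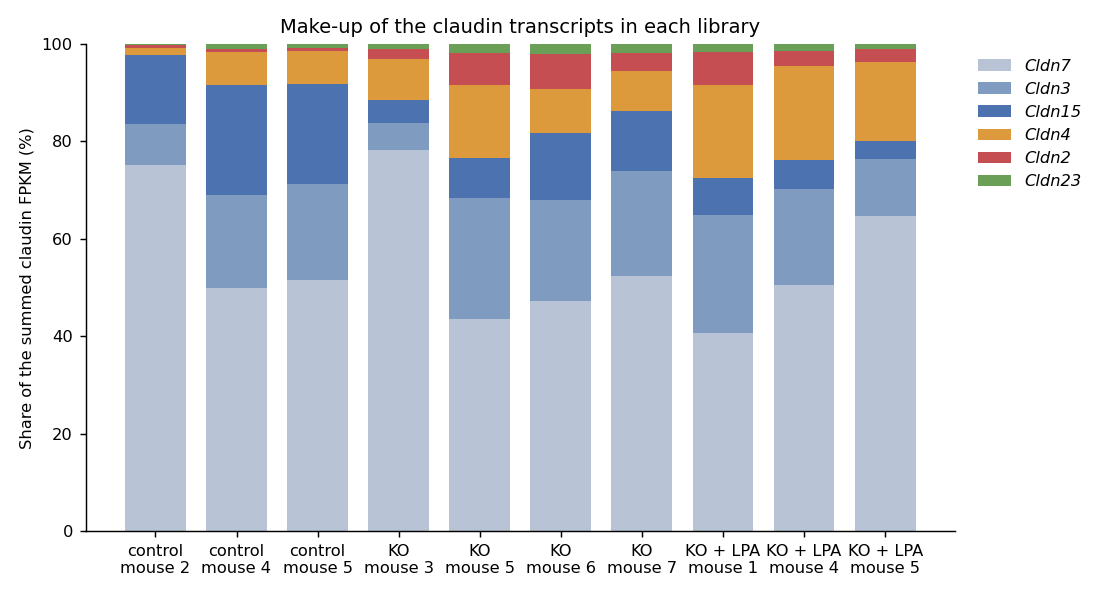
Share of each claudin (%) in the summed FPKM of the claudins studied, as stacked bars for each library; Cldn1 and Cldn8 are too low to be seen. Cldn15 takes 14.3% to 22.6% in control mice and 3.59% to 13.6% in induced mice, and Cldn2 and Cldn4 take larger shares in every induced library than in any control library.

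Beyond these genes, 68 other genes of the junction were listed in 7 groups by role and 56 were tested. Of these, 1 passed between MYO5B-knockout and control mice, Prss8, and the median log2 fold change was 0.39, against 0.29 for all genes. With the libraries that stood apart left out both medians were 0.21 and 2 of the 56 passed, and between LPA-treated and control mice the number that passed went from 1 to 9. Of all genes tested, 2.01% passed with all libraries and 4.95% without those libraries between MYO5B-knockout and control mice. Between LPA-treated and control mice these shares were 2.32% and 8.56%. Prss8 encodes prostasin, a membrane protease of the matriptase pathway. It measured 10.3, 10.1 and 7.46 FPKM in the control libraries, 32.1, 36.5, 21.5 and 23.1 FPKM in those with MYO5B loss, and 41.1, 23.0 and 33.1 FPKM in those with LPA added. All induced libraries lay above all control libraries. Of all genes tested, 17.2% had no overlap between MYO5B-knockout and control mice, and 26.9% had none between LPA-treated and control mice. The share for all induced libraries together was not computed. Prss8 rose by 1.57 in MYO5B-knockout mice (SE 0.31, limma's adjusted p = 0.0342) and by 1.77 in LPA-treated mice (SE 0.33, limma's adjusted p = 0.0239), both against control mice. The first call was held in 9 of 22 alternative fits, among them the one without the libraries that stood apart (limma's adjusted p = 0.0411), and edgeR gave 1.32 (adjusted p = 0.0859). It was lost without control mouse 4 or 5, MYO5B-knockout mouse 5, 6 or 7, or LPA-treated mouse 1 or 5, with adjusted p-values up to 0.150 in limma. The second was lost without control mouse 4 or 5 or LPA-treated mouse 1 or 5, with values up to 0.110, and in edgeR (1.40, adjusted p = 0.0935).

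With all libraries no gene of the remaining 6 groups passed, and those named here had the smallest p between MYO5B-knockout and control mice. Among 16 other claudins, 8 were tested, led by Cldn12 (0.88, limma's adjusted p = 0.171) and Cldn6 (0.95, limma's adjusted p = 0.373), which lay at or below 0.260 FPKM in every library. The entry listed as Cldn25 carries the identifier of Cldnd1 in GENCODE and was counted in that group. Of the tricellular and MARVEL proteins, most of which seal the points where several cells meet, 4 of 5 were tested, led by Ildr1 (2.13, limma's adjusted p = 0.228) and Marveld2 (0.95, limma's adjusted p = 0.463). Ildr1 was at 0 to 0.641 FPKM in control mice and 1.46 to 5.37 FPKM in LPA-treated mice, which gave 3.54 on the log2 scale (limma's adjusted p = 0.078). Of 7 immunoglobulin-like junction proteins, Cxadr (0.84, limma's adjusted p = 0.162) and Igsf5 (0.62, limma's adjusted p = 0.363) led. All 7 lay above 0 between LPA-treated and untreated MYO5B-knockout mice, where none passed and 9547 of all 15729 genes tested lay above 0. Among 14 scaffold and polarity genes tested, Ybx3, which encodes a ZO-1-associated nucleic acid binding protein, stood at 1.37 (limma's adjusted p = 0.0511), and Prkci, a polarity kinase, at 1.34 (limma's adjusted p = 0.134). Mylk, the myosin light chain kinase that tightens the perijunctional actin ring, had the lowest p of 9 actomyosin genes (-1.34, limma's adjusted p = 0.350), followed by Arhgef2 (-0.97, limma's adjusted p = 0.430). Of 9 adherens junction genes, Cdh1, the gene of E-cadherin, stood at 0.67 (limma's adjusted p = 0.167) and Vcl at 1.61 (limma's adjusted p = 0.341).

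**Figure D5:**
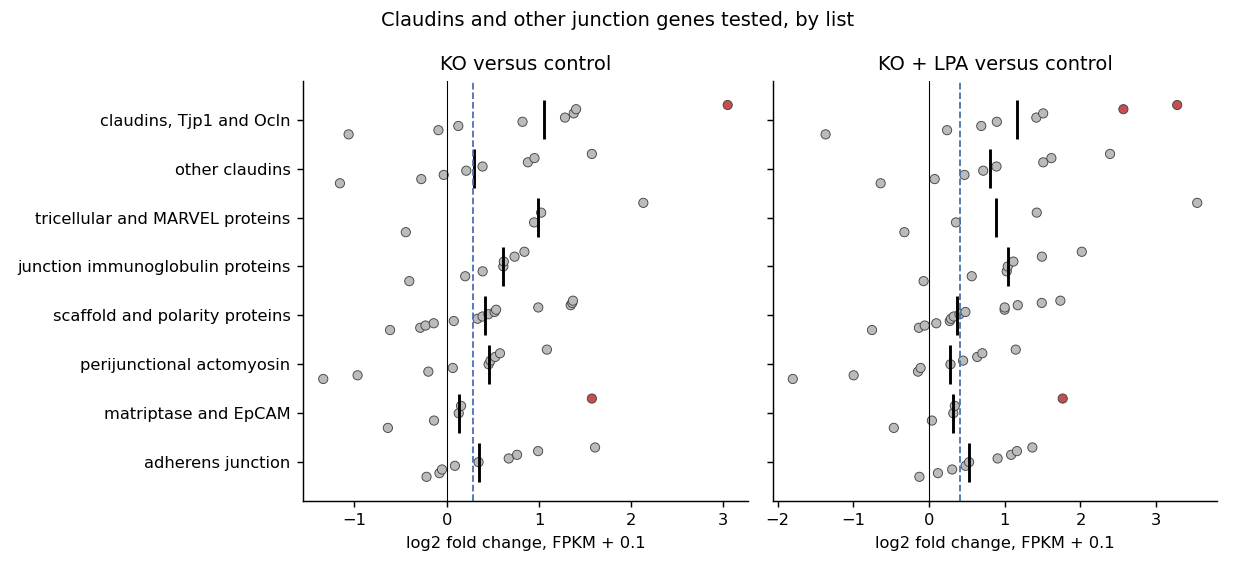
Log2 fold change of FPKM + 0.1 (x axis) of each tested gene by group of junction genes (rows) against control mice, for MYO5B-knockout mice (left) and LPA-treated mice (right); black bars are group medians, the dashed line is the median of all genes tested (0.29 and 0.41), and red marks an adjusted p under 0.05. The red points are Cldn2 and Prss8 on the left and Cldn2, Cldn4 and Prss8 on the right.

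For the 2 claudins that passed a test, the genes with the most similar profile over the 10 libraries were listed by Pearson's r of log2(FPKM + 0.1), as a description, since all 10 points share their groups and depths. For Cldn2 these were Psat1, an enzyme of serine synthesis (r = 0.993), Mboat1, a lysophospholipid acyltransferase (r = 0.986), and Agps, an enzyme of ether lipid synthesis (r = 0.984), and without the libraries that stood apart r was 0.982 to 0.993. Psat1 was at 1.00 to 2.56 FPKM in control mice and 10.9 to 46.2 FPKM in induced mice. For Cldn4 they were Rtn3 (r = 0.981), Adamtsl4 (r = 0.979) and Rabggta (r = 0.975), with r of 0.948 to 0.953 without those libraries. Rabggta, a subunit of the enzyme that adds lipid anchors to Rab proteins, was at 7.00 to 11.5 FPKM in control mice, 13.7 to 17.9 FPKM in MYO5B-knockout mice and 18.0 to 21.8 FPKM in LPA-treated mice.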

How the data were processed

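Poly-A RNA of jejunal epithelial cells, freed in PBS with 10 mM EDTA, was sequenced from 10 mice (3 control, 4 MYO5B-knockout given 0.1% BSA in PBS as vehicle, 3 LPA-treated). The submitters' processing notes name STAR 2.5, TopHat, HTSeq 0.6.1 and DESeq2 on GRCm38 (mm10). The authors deposited a table of FPKM per gene and library, with no counts beside it. Deposited lists of genes also hold read counts, and the authors' fold changes, p-values and pathway results, which were not used. Whole reads were recovered from FPKM and gene length (at least 99.9943% of values in a library within 0.05 reads of a whole number). They were checked against the deposited list of genes higher in LPA-treated than in untreated MYO5B-knockout mice, and all 63 counts there equalled them. That list holds induced libraries only, so no control library was checked in this way. Every column named 1 sample, and 0 columns of other samples were found.

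Genes averaging 0.1 FPKM or more were tested on log2(FPKM + 0.1) with limma 3.58.1 in R 4.3.3 (1 model of 3 groups, trended variance, two-sided, Benjamini-Hochberg over all genes). A fold change on this scale understates that of low genes. edgeR 4.0.16 and DESeq2 1.42.0 were run on recovered reads as alternatives, where edgeR called 443, 0 and 377 genes (MYO5B-knockout against control, LPA-treated against MYO5B-knockout, LPA-treated against control). The main limma fit and edgeR were tested on simulated data for MYO5B-knockout against control mice, and DESeq2 and the other fits were not. All 10 genes were described. Of the other junction lists, genes past an adjusted p of 0.05 were named, or the 2 with the smallest p. The genes, lists and tests were chosen with earlier results of these data known. Libraries are from separate mice by their labels. Coordinates are those of the deposited table. Promoter sequences are from RefSeq (GRCm38.p6), and protein sequences were not used here.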

Additional observations from a re-analysis of the deposited data

Results flagged for a closer look

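The MYO5B-knockout group, the only group of 4 mice, was examined for a mouse far from the rest. This covered the level of each tested gene, the share of each tested claudin and the ratio of Cldn2 to Cldn15. Of 15 such sets, 1 held one: Cldn4 took 15.1% of the claudin transcripts in MYO5B-knockout mouse 5 against 8.26% to 9.10% in the other mice of the group, a gap of 0.876 of the group's whole range. Chance picks out about 1 in 20 sets. The FPKM of Cldn4 in the same mouse, 277 against 136 to 187, was not far enough from the rest by this measure.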

How the results depend on the processing

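Of the 8 tested genes, 1 passed between MYO5B-knockout and control mice, and the count was 2 after scaling by the median of ratios, 2 after quantile normalization and 3 with DESeq2, where DESeq2 called 12.5% of all genes. Leaving out 1 mouse at a time gave 0 to 1, with 0 only without control mouse 5. Between LPA-treated and control mice the count of 2 became 1 with no filter on low values, 1 in a model of these groups only, 1 without a trend in the variance and 4 with DESeq2, and 1 to 2 with 1 mouse left out. Between LPA-treated and untreated MYO5B-knockout mice the count was 0 in every alternative. The cause of these shifts was not tested.

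Some log2 fold changes near 0 changed direction. Between MYO5B-knockout and control mice, Cldn3 went to -0.17 with the median of ratios, -0.089 with edgeR and -0.12 with DESeq2, and spanned -0.31 to 0.54 with 1 mouse left out, where Cldn7 spanned -0.35 to 0.080. Between LPA-treated and control mice, Cldn7 went to -0.14 with the median of ratios, -0.15 with edgeR and -0.20 with DESeq2. Between LPA-treated and untreated MYO5B-knockout mice, Tjp1 and Ocln went to -0.040 and -0.0078 with the median of ratios and to -0.030 and -0.037 with quantile normalization, and Tjp1 to -0.067 with edgeR and -0.069 with DESeq2. There, without control mouse 2 and MYO5B-knockout mouse 3, Cldn2, Cldn23, Tjp1 and Ocln went to -0.050, -0.073, -0.37 and -0.31. With 1 mouse left out, the ranges were -0.15 to 0.48 for Cldn2, -0.53 to 0.018 for Cldn15, -0.073 to 0.36 for Cldn23, -0.37 to 0.27 for Tjp1 and -0.31 to 0.55 for Ocln.

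Mouse numbers recur between groups (4 and 5 in control and LPA-treated mice, 5 in all), and nothing in the labels says that they pair animals. Deviations from group means correlated at 0.104 (number 4) and -0.356 (number 5) between control and LPA-treated mice, and at 0.300 and -0.214 for number 5 of the other pairs of groups. With the number as a replicate block the counts were 1, 0 and 2, and no call changed. With 3 or 4 mice a group, intervals for Ocln and Tjp1 span more than 2 log2 units, and at 0 to 4 reads Cldn1 and Cldn8 allow no comparison.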
